A study of Mus musculus with 16 samples.

Results

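Protocadherins, with Pcdh15 left out, were read in induced hair cell-like cells (iHCs) made from mouse embryonic stem cells. A gene entered when its symbol began with Pcdh and the array had an entry carrying that symbol alone. Where a gene had several such entries, the one with the highest mean was taken. The rule gave 34 of the 22180 genes tested, of which 23 belong to the clustered family (Pcdhb1 to Pcdhb22 and Pcdhga10) and 11 are non-clustered (Pcdh1, Pcdh7, Pcdh8, Pcdh9, Pcdh10, Pcdh11x, Pcdh12, Pcdh17, Pcdh18, Pcdh19 and Pcdh20). All 34 were found by gene ID in the RefSeq table of GRCm38.p6, which puts 25 of them on chromosome 18 and the 22 beta genes in numerical order along it. The alpha genes and the gamma genes other than Pcdhga10 share array entries with one another and are not among the members.

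RNA was hybridised to 16 whole-transcript arrays, in 6 groups of the stem cell line iGPA-Myo7a:mVenus grown as floating embryoid bodies (EBs). The line holds a doxycycline-switched construct for Gfi1, Pou4f3 and Atoh1 and a Myo7a reporter that marks cells with mVenus. Dox iHCs were treated with doxycycline (Dox) alone, and Dox+RA iHCs with Dox and retinoic acid (RA). Treatment began on day 4, and mVenus-positive cells were sorted on day 8 or day 12, after 4 or 8 days, with 3 arrays in each of these 4 groups. The 2 control groups, with 2 arrays each, were EBs of the same line on day 8 and day 12 with no Dox and no RA, and they were not sorted. In any comparison with control EBs, treatment and sorting therefore cannot be told apart. All groups carry the construct and the reporter, and the iHCs are whatever cells had reporter signal. Each array came from its own RNA preparation, which the submitters call a biological replicate. The p-values measure the spread between these preparations.

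The values are log2 RMA values, in which 1 unit is a 2-fold difference, and levels of different genes cannot be compared because each has its own probes. Values ran from 1.44 to 12.3. Replicate arrays of a group correlated at r = 0.982 to 0.995 over the 22180 genes, and iHC arrays with control EB arrays at 0.870 to 0.935. A gene was called when the Benjamini-Hochberg adjusted p of limma's test over all 22180 genes was under 0.05, and this adjusted p is written q below. Errors beside differences are standard errors. All 12 hair cell markers on a fixed list were higher in iHCs in all 4 comparisons with control EBs, with array means of 8.30 to 9.32 against 5.09 to 5.24. The list holds Gfi1, Pou4f3 and Atoh1, which the construct expresses, and Myo7a, whose reporter was used for sorting. A rise of these genes is set by the design. The 12 mesenchyme markers were all lower (4.47 to 5.09 against 8.15 to 8.89). Endothelial markers (4.61 to 6.02 against 6.85 to 7.65, with 9 or 10 of 10 called lower), endoderm markers (5.18 to 6.12 against 6.96 to 8.02) and cardiac markers (4.88 to 5.59 against 6.78 to 8.09) were on average lower too. The 12 neuron markers were on average higher (6.36 to 7.11 against 4.67 to 5.02), with 9, 8, 8 and 6 called higher for Dox on day 8 and day 12 and Dox+RA on day 8 and day 12. Tubb3, a tubulin of neurons on that list, was called lower in both day 12 comparisons (-0.61 ± 0.17 and -0.90 ± 0.17). In the same 4 comparisons, 3, 5, 3 and 5 of 6 endoderm markers and 6, 5, 6 and 5 of 8 cardiac markers were called lower. With Dox on day 12, 1 cardiac marker was called higher. The 8 neural progenitor markers were mixed (4 higher and 2 lower, 3 and 3, 3 and 2, 3 and 3), at 6.01 to 6.89 against 6.52 to 6.78. The labels give embryonic stem cell as the cell type. The 6 pluripotency markers averaged 4.48 to 5.02 in iHCs and 5.80 to 6.11 in control EBs, with 3, 4, 3 and 3 called lower.

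Protocadherins are transmembrane adhesion proteins of the cadherin superfamily. In the clustered family, long arrays of variable exons each have a promoter of their own, and neurons switch on small combinations of them through CTCF, cohesin and promoter methylation, which gives cells a surface identity used in self-avoidance. The alpha and gamma variable exons are spliced to shared constant exons, whereas each beta gene is a single exon with its own short tail. The non-clustered delta-1 genes (Pcdh1, Pcdh7, Pcdh9, Pcdh11x) have a cytoplasmic motif that binds protein phosphatase 1 alpha, and several delta-2 genes (among Pcdh8, Pcdh10, Pcdh17, Pcdh18, Pcdh19) bind the WAVE complex that drives actin branching. Their relative Pcdh15, left out here, forms the lower end of the tip link of hair cells.

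Promoters are shown for the 6 non-clustered genes on which the differences below turn and for which the RefSeq promoter table held one: Pcdh9, Pcdh20 and Pcdh10, higher in iHCs, Pcdh18 and Pcdh19, lower in iHCs, and Pcdh7, lower with RA at day 12. Each is 300 bases, from 250 before the start of transcription to 50 after it, from RefSeq on GRCm38.p6, written 5′ to 3′ on the strand of the gene, with capitals marking every CANNTG, the E-box core that Atoh1 and its relatives can bind.
Pcdh9, chr14:93890630-93890929, minus strand: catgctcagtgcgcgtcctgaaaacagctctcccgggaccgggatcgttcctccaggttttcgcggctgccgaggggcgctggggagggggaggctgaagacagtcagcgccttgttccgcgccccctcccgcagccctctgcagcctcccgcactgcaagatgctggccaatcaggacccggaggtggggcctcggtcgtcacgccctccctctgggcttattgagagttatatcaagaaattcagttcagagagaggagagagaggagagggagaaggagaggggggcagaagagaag
Pcdh20, chr14:88471347-88471646, minus strand: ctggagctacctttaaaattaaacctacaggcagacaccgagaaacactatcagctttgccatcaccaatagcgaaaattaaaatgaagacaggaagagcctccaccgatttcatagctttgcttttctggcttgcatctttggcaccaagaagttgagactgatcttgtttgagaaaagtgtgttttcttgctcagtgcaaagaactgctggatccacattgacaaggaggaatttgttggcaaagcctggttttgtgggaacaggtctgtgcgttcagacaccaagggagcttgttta
Pcdh10, chr3:45378148-45378447, plus strand: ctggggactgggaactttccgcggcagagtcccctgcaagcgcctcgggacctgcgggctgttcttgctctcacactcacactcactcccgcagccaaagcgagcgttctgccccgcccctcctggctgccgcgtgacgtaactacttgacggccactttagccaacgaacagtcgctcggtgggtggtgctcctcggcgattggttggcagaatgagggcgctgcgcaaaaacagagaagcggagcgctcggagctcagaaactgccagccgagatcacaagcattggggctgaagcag
Pcdh18, chr3:49757267-49757566, minus strand: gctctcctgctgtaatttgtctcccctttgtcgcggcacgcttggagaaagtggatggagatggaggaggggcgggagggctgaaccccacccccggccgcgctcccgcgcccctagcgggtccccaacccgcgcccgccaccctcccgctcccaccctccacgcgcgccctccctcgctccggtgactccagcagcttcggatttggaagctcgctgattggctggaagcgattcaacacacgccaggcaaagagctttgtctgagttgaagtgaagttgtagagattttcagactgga
Pcdh19, chrX:133688944-133689243, minus strand: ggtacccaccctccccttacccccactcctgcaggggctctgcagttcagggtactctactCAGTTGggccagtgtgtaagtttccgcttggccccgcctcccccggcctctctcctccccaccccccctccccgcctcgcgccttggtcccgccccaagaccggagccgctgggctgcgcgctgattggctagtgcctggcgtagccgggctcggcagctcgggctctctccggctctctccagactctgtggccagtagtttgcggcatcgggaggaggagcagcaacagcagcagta
Pcdh7, chr5:57717831-57718130, plus strand: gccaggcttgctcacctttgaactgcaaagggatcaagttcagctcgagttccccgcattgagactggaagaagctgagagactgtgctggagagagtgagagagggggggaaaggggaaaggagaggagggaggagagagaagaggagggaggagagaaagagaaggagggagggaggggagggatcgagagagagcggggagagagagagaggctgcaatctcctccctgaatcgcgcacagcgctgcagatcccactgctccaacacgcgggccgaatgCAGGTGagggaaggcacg

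The table held promoters for 8 of the 34 members, these 6 and Pcdh8 and Pcdh17, and for Pcdh9 a further start that overlaps the one shown. An E-box CANNTG was found in 2 of the 8, Pcdh7 and Pcdh19, and in 72.3% of the 32851 promoters in the table. The cores CAGCTG and CAGATG, searched on both strands and both contained in CANNTG, were found in 0 of the 8 and in 16.3% and 17.2% of all promoters. The letters CGCT, known from promoters of clustered protocadherins, were found on either strand in 8 of the 8 and in 61.8% of all promoters. A match is a description of the letters, and no match says only that these letters are not in this window.

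Pcdh9 was the protocadherin with the greatest rise in iHCs. This delta-1 gene is widely expressed in the developing nervous system. Its values in control EBs were 4.04 and 3.74 on day 8 and 4.58 and 4.44 on day 12. In Dox iHCs they were 9.37, 9.04 and 8.37 on day 8 and 9.93, 10.01 and 9.40 on day 12. In Dox+RA iHCs they were 9.11, 9.04 and 8.94 on day 8 and 8.78, 8.97 and 9.24 on day 12. Every iHC array lay far above every control array. The log2 difference from control EBs was 5.04 ± 0.24 for Dox on day 8 (32.9-fold, q = 8.6e-10), 5.27 ± 0.24 for Dox on day 12 (q = 3.5e-10), 5.14 ± 0.24 for Dox+RA on day 8 (q = 4.7e-10) and 4.49 ± 0.24 for Dox+RA on day 12 (q = 1.4e-09).

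Pcdh20, a non-clustered gene outside the delta groups, also rose in all 4 comparisons. Its control values were 5.33 and 4.25 on day 8 and 4.38 and 4.83 on day 12. In Dox iHCs it read 8.24, 7.83 and 8.13 on day 8 and 8.43, 8.22 and 8.34 on day 12. In Dox+RA iHCs it read 8.66, 7.74 and 6.71 on day 8 and 8.72, 8.02 and 7.69 on day 12. No iHC array overlapped a control array, but Dox+RA arrays were spread over 1.95 units on day 8, against 0.41 for the Dox arrays. Differences from control EBs were 3.28 ± 0.44 (q = 2.8e-05) and 3.73 ± 0.44 (q = 5.3e-06) for Dox, and 2.92 ± 0.44 (q = 5.9e-05) and 3.54 ± 0.44 (q = 7.8e-06) for Dox+RA, on day 8 and day 12.

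Pcdh10, a delta-2 protocadherin that recruits the WAVE complex to cell contacts and is needed for axon growth in the forebrain, rose in both kinds of iHC. Control values were 5.36 and 5.05 on day 8 and 5.54 and 5.43 on day 12. Dox iHCs read 8.23, 7.87 and 7.54 on day 8 and 8.46, 8.48 and 8.16 on day 12. Dox+RA iHCs read 6.64, 6.56 and 6.73 on day 8 and 6.29, 6.50 and 6.67 on day 12. The control, Dox+RA and Dox arrays formed 3 levels with no overlap on either day. Against control EBs the gene was higher by 2.67 ± 0.18 (q = 2.2e-08) and 2.88 ± 0.18 (q = 6e-09) with Dox, and by 1.44 ± 0.18 (q = 7.4e-06) and 1.0 ± 0.18 (q = 0.00022) with Dox+RA, on day 8 and day 12. An entry that Pcdh10 shares with another symbol was not called in these comparisons (-0.04 to 0.26). Its group means were only 2.99 to 3.36, under the 4.23 that bounds the lowest 30% of all genes. RMA compresses differences there, so this entry says little about the rise.

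**Figure D1:**
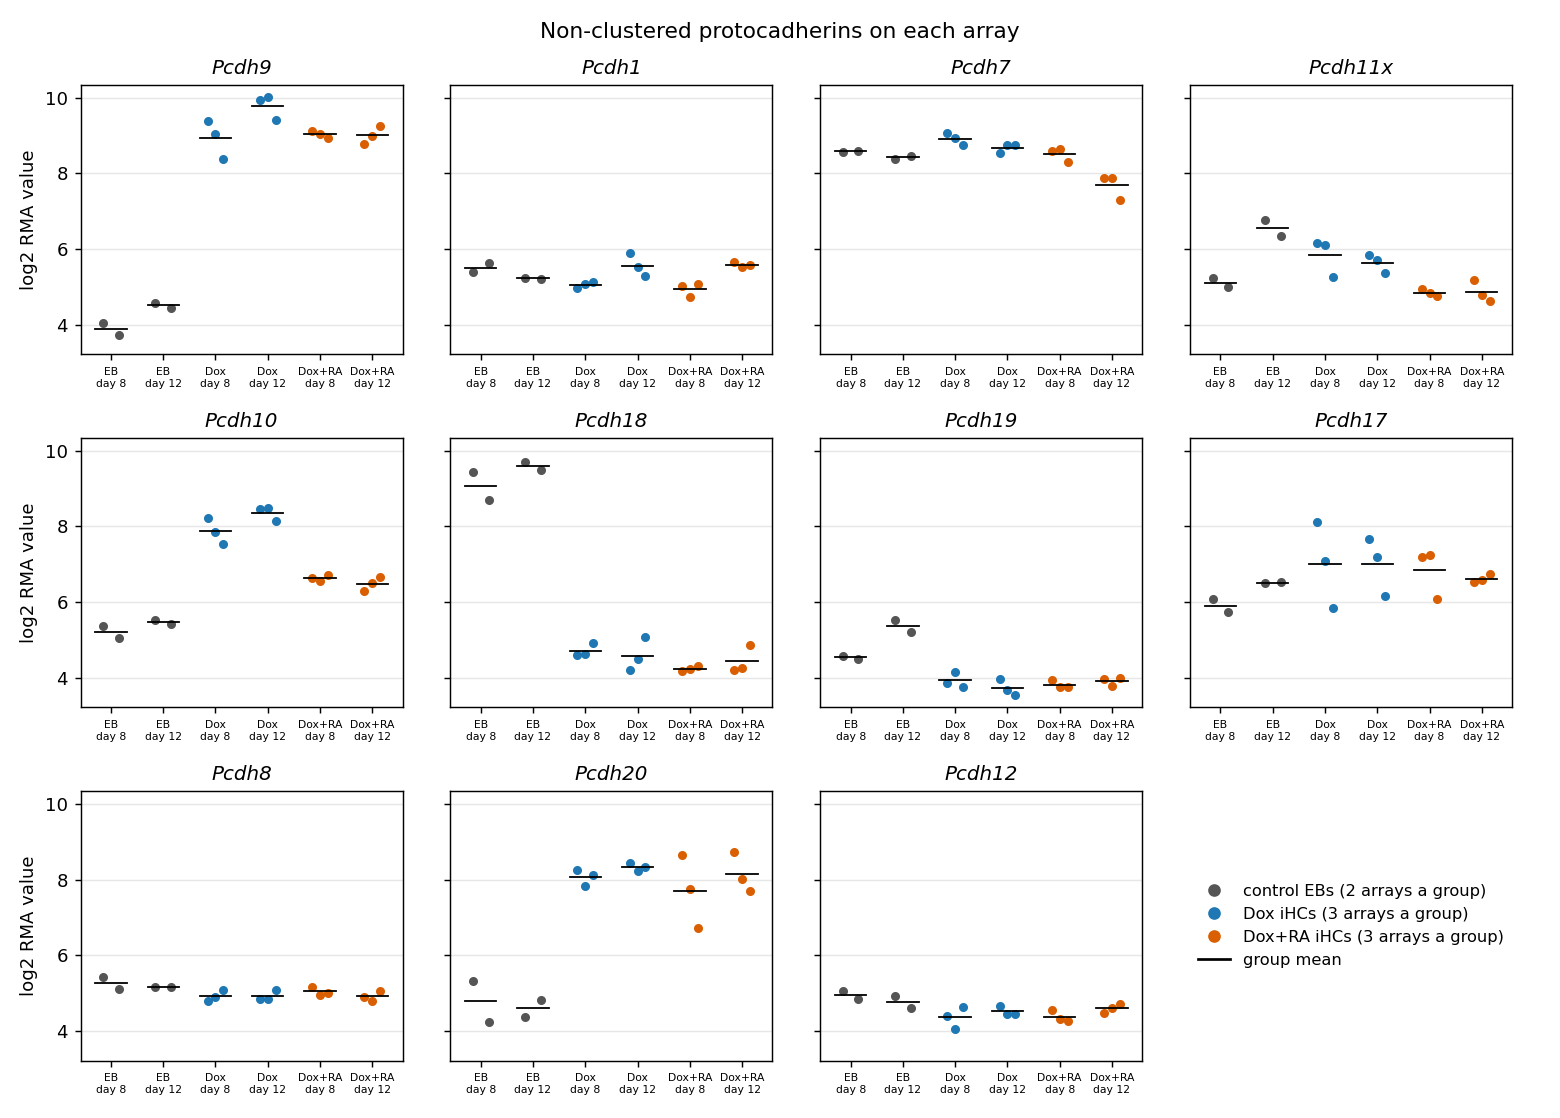
Log2 RMA value (vertical axis) of each of the 11 non-clustered protocadherins on each array, by group along the horizontal axis; points are arrays and bars are group means. Pcdh9, Pcdh20 and Pcdh10 lie above the control EBs in every iHC array, Pcdh18 and Pcdh19 lie below them, and Pcdh10 is lower in Dox+RA than in Dox iHCs.

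Pcdh18, a delta-2 gene, showed the opposite pattern. It read 9.43 and 8.69 in control EBs on day 8 and 9.71 and 9.49 on day 12. In Dox iHCs it read 4.60, 4.64 and 4.91 on day 8 and 4.20, 4.50 and 5.07 on day 12. In Dox+RA iHCs it read 4.19, 4.24 and 4.32 on day 8 and 4.22, 4.26 and 4.87 on day 12. All iHC arrays were at least 3.77 units below the nearest control array of the same day. The gene fell by 4.34 ± 0.25 (20.2-fold, q = 6.7e-09) and 5.01 ± 0.25 (q = 9.1e-10) with Dox, and by 4.81 ± 0.25 (q = 1.6e-09) and 5.15 ± 0.25 (q = 5.9e-10) with Dox+RA. The mesenchyme, endothelial, endoderm and cardiac markers given above moved the same way, and their part in the result was not tested. In these bulk samples fewer cells of a type and less RNA per cell cannot be told apart.

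Pcdh19, the delta-2 gene on the X chromosome whose mutations cause an epilepsy syndrome, fell as well. Control values were 4.59 and 4.50 on day 8 and 5.52 and 5.23 on day 12, and the 12 iHC arrays lay between 3.54 and 4.16. It was lower by -0.61 ± 0.14 (q = 0.0036) and -1.64 ± 0.14 (q = 2.7e-07) in Dox iHCs, and by -0.72 ± 0.14 (q = 0.00078) and -1.45 ± 0.14 (q = 7.9e-07) in Dox+RA iHCs, on day 8 and day 12. Groups did not overlap. The mean of this gene is among the lowest 30% of all genes, where RMA compresses differences.

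Pcdh11x, a delta-1 gene of the X chromosome, moved in opposite directions by day. Control EBs read 5.23 and 4.99 on day 8 and 6.78 and 6.33 on day 12. Dox iHCs read 6.17, 6.10 and 5.26 on day 8 and 5.83, 5.72 and 5.37 on day 12, and Dox+RA iHCs lay between 4.63 and 5.18 on both days. The control arrays changed most between the days. Dox iHCs were higher by 0.73 ± 0.24 on day 8 (q = 0.029) and lower by -0.92 ± 0.24 on day 12 (q = 0.0063). Dox+RA iHCs differed by -0.26 ± 0.24 on day 8 (q = 0.42) and fell by 1.69 ± 0.24 on day 12 (q = 3.5e-05). The day 8 rise with Dox was not called without control EB replicate 1 (q = 0.0566) or 2 (q = 0.195), or without Dox replicate 1 (q = 0.114) or 2 (q = 0.103), nor was the day 12 fall with Dox without control EB replicate 1 (q = 0.0981).

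Small differences were called in Pcdh1, a delta-1 gene expressed in epithelia, and in Pcdh12, a protocadherin of endothelial cells. Pcdh1 was lower on day 8 by -0.45 ± 0.15 with Dox (q = 0.03) and by -0.56 ± 0.15 with Dox+RA (q = 0.0067), whereas on day 12 its differences were 0.33 ± 0.15 (q = 0.099) and 0.36 ± 0.15 (q = 0.066). Pcdh12 was lower on day 8 by -0.58 ± 0.16 with Dox (q = 0.0085) and with Dox+RA (-0.58 ± 0.16, q = 0.0076), and differed by -0.25 ± 0.16 (q = 0.24) and -0.17 ± 0.16 (q = 0.41) on day 12. Its control values were 5.06 and 4.84 on day 8, and the 6 iHC arrays of that day read 4.06 to 4.63. The 10 endothelial markers all fell on day 8, and their part in the Pcdh12 result was not tested. Without control EB replicate 1 of day 8 Pcdh12 was not called (q = 0.0927 with Dox and 0.0843 with Dox+RA). Without control EB replicate 2 of day 8 Pcdh1 was not called (q = 0.25 and 0.0932), and with Dox it was not called either without Dox replicate 1 (q = 0.0897) or 2 (q = 0.0587).

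Pcdh7 and Pcdh8 passed the test against control EBs in few comparisons, and Pcdh17 in none. Each passed more often with the replicate number as a block. Pcdh7, a delta-1 gene known to act on protein phosphatase 1 alpha, differed by 0.34 ± 0.16 (q = 0.12) and 0.25 ± 0.16 (q = 0.24) with Dox and by -0.07 ± 0.16 (q = 0.77) with Dox+RA on day 8, and fell by 0.74 ± 0.16 with Dox+RA on day 12 (q = 0.0014). With the block its Dox difference on day 8 was called (0.43, q = 0.0211). Pcdh8, a delta-2 gene first known as a synaptic protein induced by activity, was lower by -0.34 ± 0.12 with Dox on day 8 (q = 0.044). That call was lost without control EB replicate 1 of day 8 (q = 0.378) and without Dox replicate 1 (q = 0.146) or 2 (q = 0.0942), and its other differences were -0.22 to -0.25. With the block it was also called lower on day 12, with Dox (q = 0.0447) and with Dox+RA (q = 0.0332). Pcdh17, a delta-2 gene that acts at axon contacts and presynaptic sites, had the widest spread. Its Dox arrays read 8.11, 7.10 and 5.84 on day 8 and 7.66, 7.20 and 6.15 on day 12, with replicate 3 lowest both times, against control values of 6.07 and 5.73, then 6.50 and 6.53. The differences for Dox were 1.12 ± 0.52 (q = 0.12) and 0.49 ± 0.52 (q = 0.51), and without Dox replicate 3 of day 8 the day 8 difference was called (q = 0.0087). With Dox+RA they were 0.94 ± 0.52 (q = 0.17) and 0.11 ± 0.52 (q = 0.89). With the block, both day 8 differences were called, at 1.45 with Dox (q = 0.00417) and 1.27 with Dox+RA (q = 0.00818).

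Over the whole set, 17 of 34 protocadherins were called in Dox iHCs against control EBs on day 8 (11 higher, 6 lower), where 34.6% of all genes were called (15.7% higher, 18.9% lower). On day 12 Dox iHCs had 17 (6 higher, 11 lower), where 40.8% of all genes were called (19.2% higher, 21.7% lower). Dox+RA iHCs had 18 on day 8 (14 higher, 4 lower) beside 41.6% of all genes (19.6% higher, 22% lower). On day 12 they had 22 (11 higher, 11 lower) beside 44.8% (22.4% higher, 22.4% lower). The median difference of the members was 0.17, -0.02, 0.42 and 0.07 in this order, and that of all genes 0.02, 0.02, 0.05 and 0.07. Arrays of the groups compared did not overlap for 21, 20, 28 and 27 of 34 members, and for 55.4%, 58.3%, 61.1% and 64.6% of all genes. Calls that held without each single array in turn numbered 7, 12, 13 and 14. Comparisons of the same day share their control EBs.

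Among the clustered genes, those at the far end of the beta array, Pcdhb16 to Pcdhb22, were higher in iHCs on day 8. In Dox iHCs 6 of these 7 genes rose, beside 15.7% of all genes called higher. In Dox+RA iHCs 7 of 7 rose, beside 19.6% of all genes. The remaining 15 beta genes had 1 fall with Dox (Pcdhb14) and 3 rises with Dox+RA (Pcdhb6, Pcdhb8 and Pcdhb15). This division of the array was made after the values were seen and carries no test. The beta genes are similar copies, and probes of one may read RNA of another, so single genes are uncertain.

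Pcdhb18 had the largest rise among the beta genes in all 4 comparisons with control EBs. It read 5.34 and 5.57 in control EBs on day 8 and 6.49 and 6.30 on day 12. Dox iHCs read 7.37, 7.28 and 6.80 on day 8 and 8.13, 8.29 and 7.31 on day 12, and Dox+RA iHCs read 8.08, 8.11 and 7.97 on day 8 and 8.24, 8.43 and 8.25 on day 12. No iHC array overlapped the control arrays of its day. The rise was 1.70 ± 0.23 (q = 3.1e-05) and 1.51 ± 0.23 (q = 6.5e-05) with Dox, and 2.60 ± 0.23 (6.07-fold, q = 2.7e-07) and 1.91 ± 0.23 (q = 5.7e-06) with Dox+RA.

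On day 8 the other leading rises with Dox were Pcdhb22 at 1.01 ± 0.32 (q = 0.021), Pcdhb20 at 0.84 ± 0.20 (q = 0.0042), Pcdhb17 at 0.77 ± 0.21 (q = 0.0078) and Pcdhb16 at 0.75 ± 0.18 (q = 0.0044). With Dox+RA they were Pcdhb16 at 1.61 ± 0.18 (q = 3.4e-06), Pcdhb17 at 1.60 ± 0.21 (q = 1.3e-05), Pcdhb20 at 1.51 ± 0.20 (q = 2e-05) and Pcdhb22 at 1.46 ± 0.32 (q = 0.0014). Pcdhga10, the only gamma gene with an entry of its own, rose in all 4 comparisons, by 0.53 ± 0.13 and 0.41 ± 0.13 with Dox and by 0.82 ± 0.13 and 0.53 ± 0.13 with Dox+RA on day 8 and day 12. A further entry, which Pcdhga10 shares with another symbol, went the other way, so the entries of this gene disagree. It differed by -0.29 ± 0.11 with Dox+RA on day 8 (limma's adjusted p over all 33708 entries = 0.0468). In the other comparisons with control EBs it differed by -0.26 to -0.11 and was not called. Several of the Dox calls of day 8 rested on single arrays. Pcdhb22 was lost without control EB replicate 1 (q = 0.0864) or 2 (q = 0.0955) or Dox replicate 1 (q = 0.0586) or 2 (q = 0.0767), and Pcdhb21 (0.75 ± 0.27, q = 0.044) likewise (q = 0.13, 0.169, 0.111 and 0.134). Without control EB replicate 2, Pcdhb16 (q = 0.0653), Pcdhb17 (q = 0.0953) and Pcdhga10 (q = 0.0554) were lost with Dox, and Pcdhb15 (q = 0.107), Pcdhb19 (q = 0.0561) and Pcdhb8 (q = 0.207) with Dox+RA. Pcdhb2 and Pcdhb3 were called there instead, as lower, with Dox (q = 0.00782 and 0.0317) and with Dox+RA (q = 0.00897 and 0.0224). The Pcdhb14 fall with Dox was lost without control EB replicate 1 (q = 0.111) or Dox replicate 3 (q = 0.0651), and Pcdhb8 with Dox+RA also without control EB replicate 1 (q = 0.105) or Dox+RA replicate 1 (q = 0.0791) or 2 (q = 0.145).

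With the replicate number as a block, Pcdhb6 was also called higher with Dox on day 8 (q = 0.00655), as were Pcdhb7 (q = 0.0222) and Pcdhb13 (q = 0.0397) with Dox+RA on day 8, and Pcdhb21 (q = 0.00205) and Pcdhb22 (q = 0.01) with Dox on day 12.

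**Figure D2:**
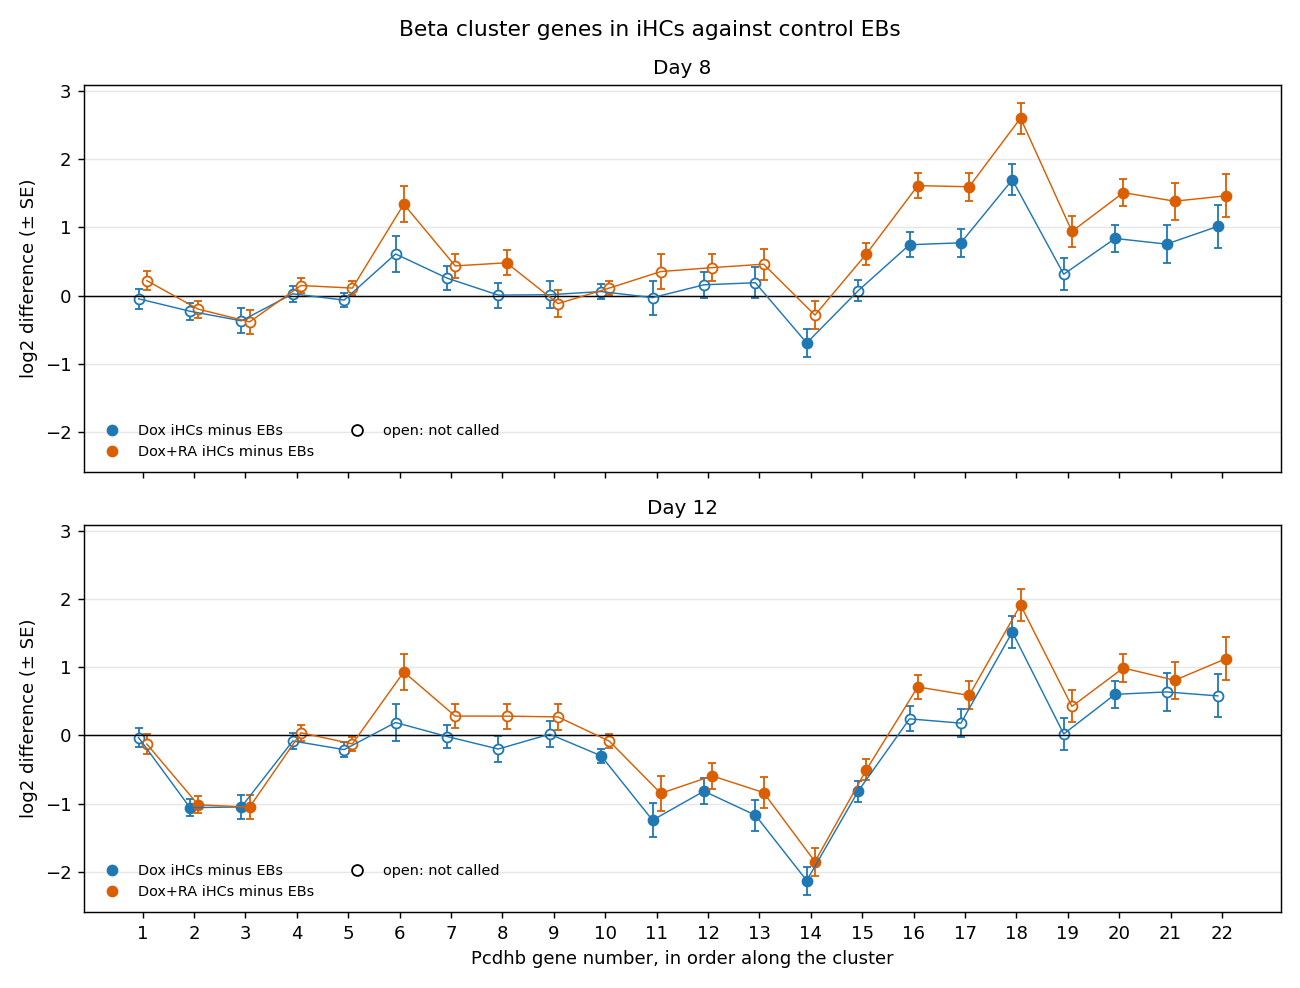
Log2 difference from control EBs (vertical axis, ± SE) of Pcdhb1 to Pcdhb22 in their order along the chromosome, on day 8 (top) and day 12 (bottom), for Dox iHCs (blue) and Dox+RA iHCs (orange); filled points passed the test. Pcdhb16 to Pcdhb22 lie above 0 on both days, and Pcdhb11 to Pcdhb15 lie below 0 on day 12.

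By day 12 the beta array had split. Pcdhb11 to Pcdhb15 were lower than in control EBs in both kinds of iHC (5 of 5 called), as were Pcdhb2 and Pcdhb3. Pcdhb16 to Pcdhb22 still lay above control EBs, with 2 of 7 called in Dox iHCs (Pcdhb18 and Pcdhb20) and 6 of 7 in Dox+RA iHCs. Of the whole beta family 2 rose and 8 fell with Dox, beside 19.2% of all genes called higher and 21.7% lower. The share of beta genes called with Dox, 45.5%, was near the 40.8% of all genes. With Dox+RA 7 rose and 7 fell, beside 22.4% of all genes each way. The group Pcdhb11 to Pcdhb15 was also picked after the values were seen and carries no test.

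Pcdhb14 fell the most. It read 6.18 and 5.71 in control EBs of day 12, then 3.73, 4.19 and 3.54 in Dox iHCs and 3.92, 4.27 and 4.09 in Dox+RA iHCs. These iHC arrays were all well below the day 12 control arrays. The day 8 control values were 4.46 and 4.28, and the highest Dox+RA array of day 12 all but reached the lower of them (4.274 against 4.275). It fell by 2.13 ± 0.21 with Dox (4.37-fold, q = 7.3e-07) and by 1.85 ± 0.21 with Dox+RA (q = 2.6e-06). Other falls with Dox were Pcdhb11 by -1.24 ± 0.25 (q = 0.00085), Pcdhb13 by -1.17 ± 0.23 (q = 0.00058), Pcdhb2 by -1.06 ± 0.13 (q = 6e-06) and Pcdhb3 by -1.05 ± 0.18 (q = 0.00022). With Dox+RA they were Pcdhb3 by -1.05 ± 0.18 (q = 0.0002), Pcdhb2 by -1.02 ± 0.13 (q = 7.8e-06), Pcdhb11 by -0.85 ± 0.25 (q = 0.012) and Pcdhb13 by -0.84 ± 0.23 (q = 0.0066). Rises with Dox+RA were led, after Pcdhb18, by Pcdhb22 at 1.13 ± 0.32 (q = 0.0087), Pcdhb20 at 0.99 ± 0.20 (q = 0.00087), Pcdhb6 at 0.93 ± 0.27 (q = 0.01) and Pcdhb21 at 0.81 ± 0.27 (q = 0.025). Pcdhb2, Pcdhb3 and Pcdhb14 are among the 9 members in the lowest 30% of all genes by mean.

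Several of these day 12 calls changed without single arrays. Without control EB replicate 1, Pcdhb12 (q = 0.0675), Pcdhb10 (q = 0.39), Pcdhb20 (q = 0.0662) and Pcdhga10 (q = 0.0662) were lost with Dox, and Pcdhb11 (q = 0.162), Pcdhb12 (q = 0.248), Pcdhb13 (q = 0.0767), Pcdhb15 (q = 0.168) and Pcdhb21 (q = 0.0753) with Dox+RA. Without control EB replicate 2, Pcdhb20 (q = 0.155) and Pcdhga10 (q = 0.0997) were lost with Dox, and Pcdhb17 (q = 0.215), Pcdhb21 (q = 0.127), Pcdhb22 (q = 0.0547) and Pcdhb6 (q = 0.0826) with Dox+RA. Pcdhb20 and Pcdhga10 were also lost with Dox without Dox replicate 1 (q = 0.0803 and 0.0724) or 2 (q = 0.113 and 0.0506), and Pcdhb10 without Dox replicate 2 (q = 0.0622) or 3 (q = 0.102). With Dox+RA, Pcdhb15 was lost without Dox+RA replicate 1 (q = 0.0535), Pcdhb17 and Pcdhb21 without replicate 2 (q = 0.0758 and 0.0855), and Pcdhb12 and Pcdhb17 without replicate 3 (q = 0.0512 and 0.076).

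The third Dox array stood apart within its group. On day 12 it was the lowest of the 3 in 17 of 22 beta genes and in 7 of 7 of Pcdhb16 to Pcdhb22, and on day 8 the third Dox array was the lowest in 13 of 22 and in 7 of 7. Without Dox replicate 3 of day 12, Pcdhb21 (q = 0.000523), Pcdhb22 (q = 0.000423), Pcdhb16 (q = 0.0436) and Pcdh1 (q = 0.0149) were called higher in Dox iHCs than in control EBs on day 12. The mesenchyme marker mean of that array was 5.03, against 4.57 and 4.56 in replicates 1 and 2, and its endoderm mean was 6.12, against 5.18 and 5.30. On day 8 replicate 3 read 5.09 against 4.62 and 4.83 for mesenchyme, and 6.06 against 5.37 and 5.58 for endoderm. Their part in the values of the beta genes was not tested.

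In control EBs alone, 13 of 34 protocadherins rose from day 8 to day 12, where 3.75% of all genes were called and 2.33% called higher. The median change of the members was 0.62 and that of all genes 0.00. Arrays of the days did not overlap for 28 of 34 members and for 45.5% of all genes. The rises were in Pcdh11x (1.44 ± 0.27, q = 0.0052), in Pcdh19 (0.83 ± 0.16, q = 0.0065) and in 11 of 22 beta genes, led by Pcdhb13 (1.62 ± 0.25, q = 0.0013), Pcdhb14 (1.58 ± 0.23, q = 0.00069), Pcdhb11 (1.45 ± 0.28, q = 0.0063), Pcdhb6 (1.35 ± 0.29, q = 0.017) and Pcdhb15 (1.27 ± 0.17, q = 0.00039). Pcdhb13 read 4.11 and 4.11 on day 8 and 5.88 and 5.59 on day 12, with no array between. All 5 of Pcdhb11 to Pcdhb15 rose, so the day 12 falls in iHCs are measured against control EBs that had risen. Between the same days 4 of 12 mesenchyme, 2 of 12 neuron and 1 of 6 endoderm markers rose in control EBs, and 3 of 10 endothelial and 3 of 8 cardiac markers fell. The part of these markers in the protocadherin rises was not tested.

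With 2 arrays a day, single control arrays decided many of these rises. Without day 12 replicate 1, Pcdh11x (q = 0.0937), Pcdh19 (q = 0.115), Pcdhb6 (q = 0.16), Pcdhb11 (q = 0.115), Pcdhb12 (q = 0.149), Pcdhb16 (q = 0.0618), Pcdhb17 (q = 0.0702) and Pcdhb20 (q = 0.255) were lost, which left 5. Without day 8 replicate 2, Pcdh11x (q = 0.083), Pcdh19 (q = 0.0852), Pcdhb3 (q = 0.418), Pcdhb6 (q = 0.228), Pcdhb11 (q = 0.0739), Pcdhb16 (q = 0.102), Pcdhb17 (q = 0.0777) and Pcdhb20 (q = 0.251) were lost. Without day 12 replicate 2, Pcdhb3 (q = 0.247), Pcdhb6 (q = 0.0631) and Pcdhb20 (q = 0.103) were lost, and without day 8 replicate 1, Pcdhb12 (q = 0.073) and Pcdhb20 (q = 0.0835). Pcdhb2, Pcdhb13, Pcdhb14 and Pcdhb15 stayed called without any single array. With the replicate number as a block, Pcdhb18 (0.94, q = 0.00695) and Pcdhb8 (0.63, q = 0.044) also rose.

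**Figure D3:**
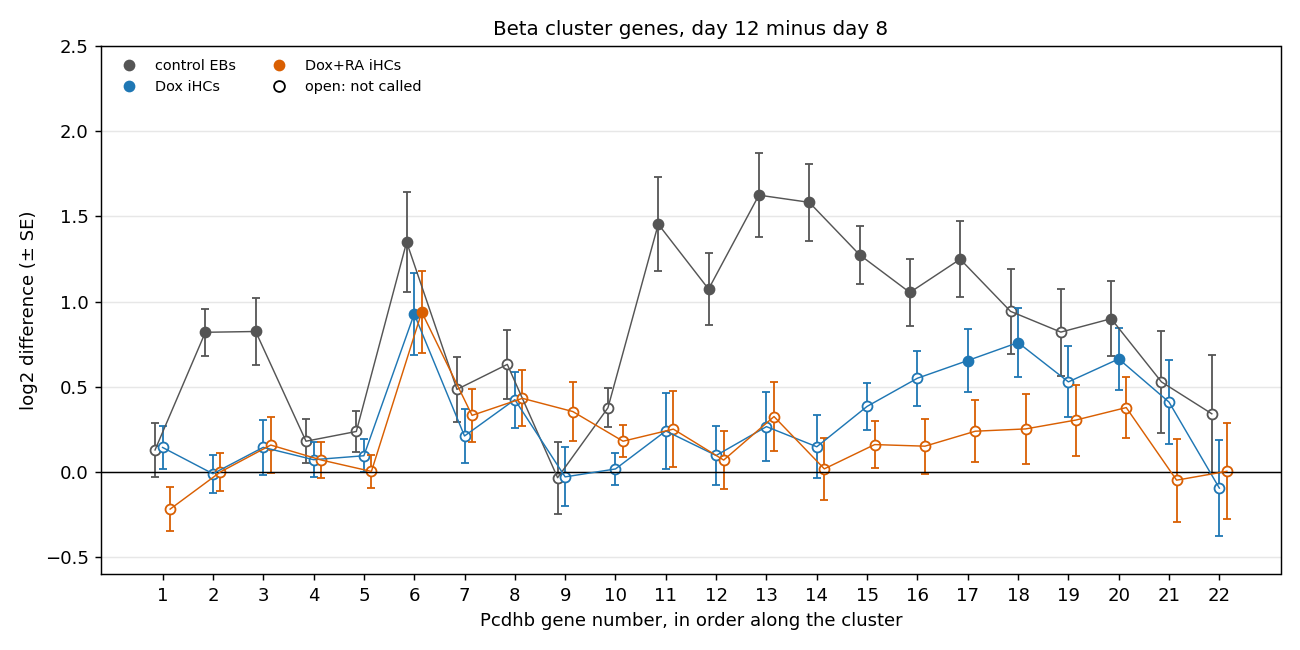
Log2 difference of day 12 minus day 8 (vertical axis, ± SE) for Pcdhb1 to Pcdhb22 in their order along the chromosome, in control EBs (grey), Dox iHCs (blue) and Dox+RA iHCs (orange); filled points passed the test. Pcdhb11 to Pcdhb15 changed by 1.07 to 1.62 in control EBs and by 0.02 to 0.38 in iHCs, which were not called.

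Within iHCs fewer protocadherins differed between the days. In Dox iHCs 6 of 34 rose, where 8.05% of all genes were called and 3.39% called higher: Pcdh9 by 0.85 ± 0.21 (q = 0.026), Pcdh1 by 0.50 ± 0.13 (q = 0.036), Pcdhb6 by 0.93 ± 0.24 (q = 0.03), Pcdhb18 by 0.76 ± 0.20 (q = 0.036), Pcdhb20 by 0.66 ± 0.18 (q = 0.037) and Pcdhb17 by 0.65 ± 0.18 (q = 0.042). None of these 6 calls held without each Dox array in turn. Without Dox day 12 replicate 1, day 12 replicate 2 or day 8 replicate 3, all 6 had q of 0.074 to 0.182. Without day 8 replicate 2 or 1, 5 and 4 of the 6 were lost (q = 0.0572 to 0.102 and 0.0576 to 0.0858). Without day 12 replicate 3, in contrast, 13 protocadherins were called, Pcdhb16 (q = 0.00517), Pcdhb19 (q = 0.00517) and Pcdhb21 (q = 0.0097) among the added ones. The share of all genes called without that array was not counted, so the added calls cannot be set against a background. With the replicate number as a block, Pcdh10 (q = 0.0491) and Pcdhb16 (q = 0.0344) also rose.

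In Dox+RA iHCs 3 of 34 were called between the days (2 higher, 1 lower), beside 4.38% of all genes (1.78% higher, 2.61% lower). Pcdh7 read 8.59, 8.63 and 8.29 on day 8 and 7.87, 7.86 and 7.31 on day 12, with no overlap, and fell by 0.83 ± 0.14 (q = 0.0054). Pcdh1 rose by 0.64 ± 0.13 (q = 0.016) and Pcdhb6 by 0.94 ± 0.24 (q = 0.04). Pcdhb6 was lost without any one of Dox+RA day 8 replicates 1, 2 and 3 (q = 0.102, 0.102 and 0.0997) or day 12 replicates 1 and 2 (q = 0.148 and 0.166), and Pcdh1 without day 12 replicate 1 (q = 0.0653) or 2 (q = 0.0521) or day 8 replicate 2 (q = 0.0811).

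The change over days was tested against that in control EBs. It was smaller in Dox iHCs for 6 of 34 protocadherins, where 2.84% of all genes were called and 1.81% called as smaller: Pcdh11x (-1.65 ± 0.34, q = 0.017), Pcdhb14 (-1.43 ± 0.29, q = 0.015), Pcdhb13 (-1.36 ± 0.32, q = 0.034), Pcdh19 (-1.03 ± 0.20, q = 0.013), Pcdhb15 (-0.89 ± 0.22, q = 0.042) and Pcdhb2 (-0.83 ± 0.18, q = 0.02). In Dox+RA iHCs it was smaller for 5, where 2.62% of all genes were called and 1.67% called as smaller: Pcdhb14 (-1.56 ± 0.29, q = 0.0088), Pcdh11x (-1.42 ± 0.34, q = 0.039), Pcdhb13 (-1.30 ± 0.32, q = 0.043), Pcdhb15 (-1.11 ± 0.22, q = 0.012) and Pcdhb2 (-0.82 ± 0.18, q = 0.023). It was larger for Pcdh1 (0.92 ± 0.21, q = 0.032), beside 0.956% of all genes called as larger. All of these calls were lost in Dox and in Dox+RA iHCs without control EB day 12 replicate 1 (q = 0.0786 to 0.207 and 0.0651 to 0.207) and without control EB day 8 replicate 2 (q = 0.0724 to 0.212 and 0.0561 to 0.186). Each of these fits left only 1 control array on day 12 or on day 8. Pcdhb2, Pcdhb13 and Pcdhb15 with Dox, and Pcdh1, Pcdh11x, Pcdhb2 and Pcdhb13 with Dox+RA, were each also lost without some other single array (q = 0.050 to 0.0905 and 0.0516 to 0.101). With the replicate number as a block, Pcdhb11 and Pcdhb12 were called as smaller with Dox (q = 0.0297 and 0.0417) and with Dox+RA (q = 0.0347 and 0.0419). The block also called Pcdh1 as larger with Dox (q = 0.0477), and Pcdh19 (q = 0.0342) and Pcdhb17 (q = 0.0478) as smaller with Dox+RA. This made 9 and 10 calls in place of 6 and 6, and the share of all genes called with the block was not counted.

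RA added to Dox lowered Pcdh10. The Dox+RA arrays listed above lay below all Dox arrays of the same day, and the gene differed by -1.23 ± 0.16 on day 8 (2.35-fold, q = 0.00058) and by -1.88 ± 0.16 on day 12 (3.67-fold, q = 2.9e-05). Pcdh11x fell by 0.99 ± 0.22 on day 8 (q = 0.017), with Dox+RA arrays at 4.95, 4.84 and 4.75 below all Dox arrays. On day 12 it differed by -0.77 ± 0.22 (q = 0.12), and with the replicate number as a block it was called there too (q = 0.0064). Pcdh7 differed by -0.41 ± 0.14 on day 8 (q = 0.12, and 0.0379 with the block) and fell by 0.99 ± 0.14 on day 12 (q = 0.0042), where its Dox arrays read 8.53, 8.74 and 8.75. That fall was not called when only the arrays of the groups compared were fitted (q = 0.0886). Pcdh9 differed by 0.10 ± 0.21 on day 8 (q = 0.87) and by -0.78 ± 0.21 on day 12 (q = 0.12, and 0.0449 with the block). The other non-clustered genes, Pcdh1, Pcdh8, Pcdh12, Pcdh17, Pcdh18, Pcdh19 and Pcdh20, differed by -0.47 to 0.19 over both days and none was called.

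The clustered genes lay on the other side. On day 8, where 2.05% of all genes were called higher with RA and 2.89% lower, 5 of 23 rose (Pcdhb18 by 0.90 ± 0.20, q = 0.02; Pcdhb16 by 0.87 ± 0.16, q = 0.0076; Pcdhb17 by 0.82 ± 0.18, q = 0.019; Pcdhb20 by 0.67 ± 0.18, q = 0.046; Pcdhb15 by 0.54 ± 0.14, q = 0.036). In all, 7 of 34 protocadherins were called on day 8, beside 4.93% of all genes. With the replicate number as a block 12 were called, which added Pcdh7, Pcdhb6 (q = 0.0162), Pcdhb8 (q = 0.0421), Pcdhb19 (q = 0.0477) and Pcdhb21 (q = 0.0221). The share of all genes called with the block was not counted. The median difference of the 23 clustered genes was 0.38 on day 8 and 0.30 on day 12, with 21 of 23 above 0 on each day, against medians of 0.02 and 0.03 over all genes. Dox and Dox+RA arrays did not overlap for 14 of the 23 on day 8 and for 1 on day 12. The shares of all genes above 0 and without overlap were not counted. Dox replicate 3 of day 12 was the lowest Dox array in 17 of 22 beta genes. Without it, 4 of 34 members had an unadjusted limma p under 0.05 on day 12, against 10 with all arrays. On day 12 limma called 2 of 34, Pcdh10 and Pcdh7, both lower, beside 0.924% of all genes (0.541% lower), and 0 of the 23 clustered genes, 6 of which had an unadjusted p under 0.05. The largest clustered differences there were 0.74 for Pcdhb6 and 0.55 for Pcdhb22, and the block called 5 members on day 12 (adding Pcdh9, Pcdh11x and Pcdhb6, q = 0.0363). Without Dox replicate 3 of day 8, which is outside the day 12 comparison, Pcdh9 and Pcdh11x were called on day 12 (q = 0.0371 for each). Whether the effect of RA differed between the days was tested: limma called 0 of 34 members (3 with an unadjusted p under 0.05) and 0.00902% of all genes.

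On day 8 the hair cell markers moved with RA as well, 7 of 12 being higher with Dox+RA, as did 2 of 12 neuron markers, while 1 of 12 mesenchyme markers was lower; their part in the beta gene rises was not tested. Most beta gene calls of day 8 rested on single arrays. Without Dox replicate 3, Pcdhb15 (q = 0.15), Pcdhb17 (q = 0.0969), Pcdhb18 (q = 0.102) and Pcdhb20 (q = 0.186) were lost, without Dox+RA replicate 2 also Pcdh11x (q = 0.0568; Pcdhb15 0.0948, Pcdhb17 0.0704, Pcdhb18 0.0723, Pcdhb20 0.135). Without Dox replicate 2, Pcdh11x (q = 0.0933), Pcdhb15 (q = 0.108), Pcdhb18 (q = 0.059) and Pcdhb20 (q = 0.0908) were lost, and without Dox+RA replicate 3, Pcdh11x (q = 0.052), Pcdhb15 (q = 0.12), Pcdhb17 (q = 0.0573) and Pcdhb20 (q = 0.116). Without Dox replicate 1 Pcdhb20 was lost (q = 0.0653), and without Dox+RA replicate 1 Pcdhb18 (q = 0.064) and Pcdhb20 (q = 0.076). Pcdh10 and Pcdhb16 stayed called without any single array.

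**Figure D4:**
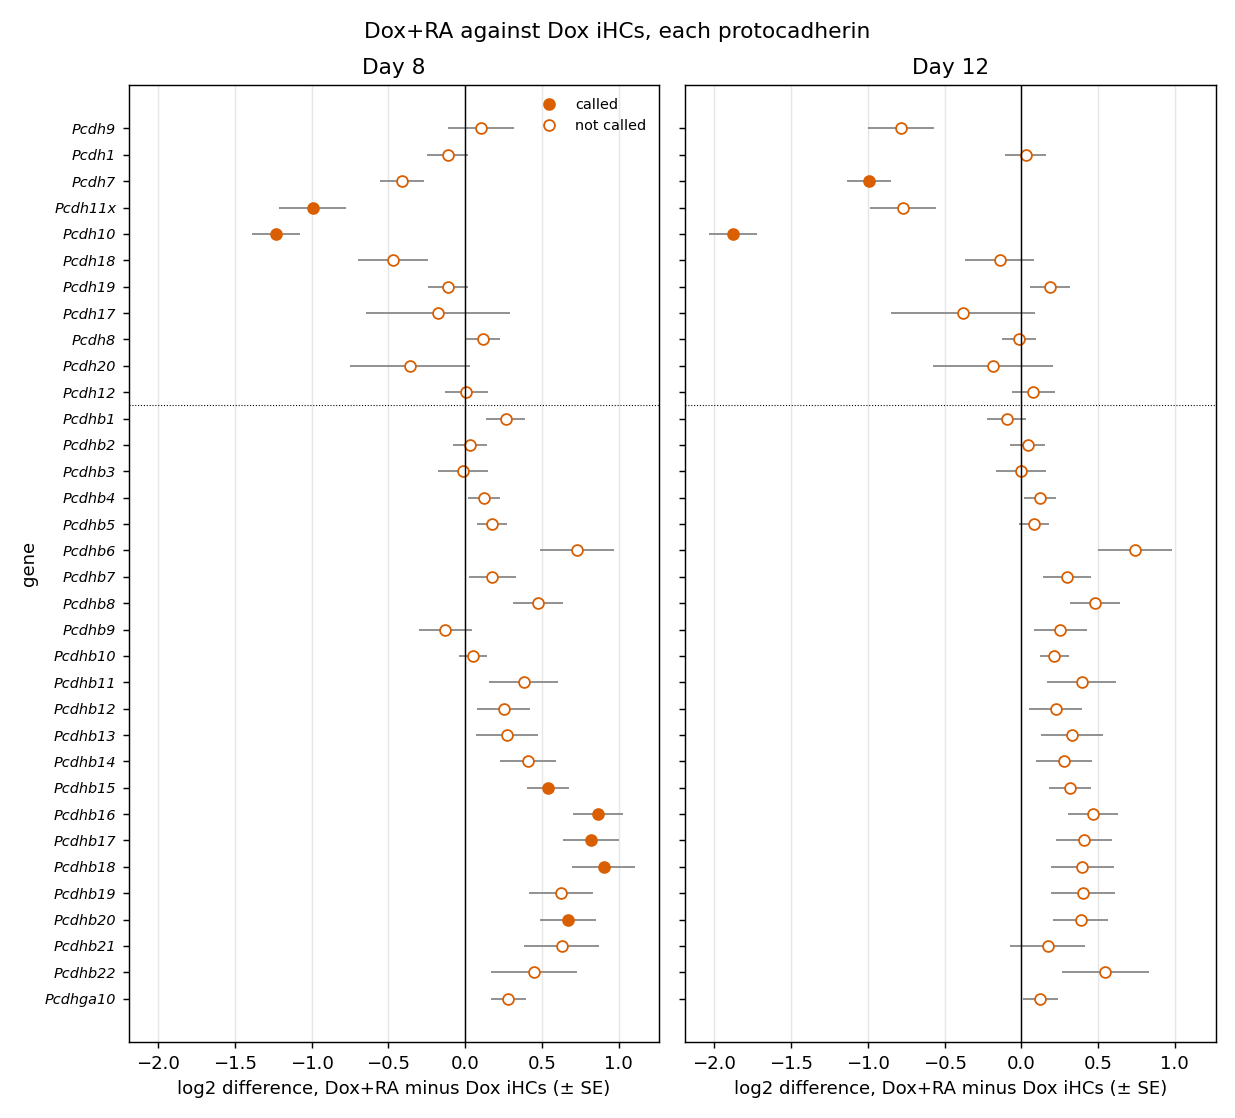
Log2 difference of Dox+RA minus Dox iHCs (horizontal axis, ± SE) for each of the 34 protocadherins (vertical axis), on day 8 (left) and day 12 (right); filled points passed the test. Pcdh10 is lower on both days, and 21 of the 23 clustered genes lie above 0 on each day. Of the clustered genes, 5 were called on day 8 and 0 on day 12.

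The other genes of the pathway came from lists chosen with earlier results of these data known. Of 15 regulators of promoter choice in the clusters, 1 rose and 7 fell in Dox iHCs against control EBs on day 8, 3 rose and 8 fell on day 12, and in Dox+RA iHCs 3 rose and 8 fell on day 8 and 3 rose and 7 fell on day 12. These are 53.3%, 73.3%, 73.3% and 66.7% of the list, beside 34.6%, 40.8%, 41.6% and 44.8% of all genes called in the same comparisons. The genes that rose, named after their values were seen, were Dnmt3a (0.52 to 0.81 in all but Dox on day 12), Wiz and Wapl, which act on cohesin, and the cohesin subunit Stag2, the last 3 by 0.22 to 0.49 where called. The largest changes were falls. Rest, a repressor of neuronal genes, fell, with differences of -1.31 ± 0.28 and -1.93 ± 0.28 with Dox and of -2.28 ± 0.28 and -2.29 ± 0.28 with Dox+RA on day 8 and day 12. Dnmt3b, the methyltransferase that sets methylation at clustered promoters, fell by 1.83 ± 0.35 with Dox and 2.52 ± 0.35 with Dox+RA on day 8. Setdb1, a histone methyltransferase that acts on the cluster, fell by 0.97 ± 0.11 with Dox and 1.36 ± 0.11 with Dox+RA on day 8. The list's median was -0.15, -0.27, -0.35 and -0.34 in these 4 comparisons, against 0.02, 0.02, 0.05 and 0.07 over all genes.

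Of 21 measured cytoplasmic and membrane partners of protocadherins, 4 rose and 3 fell with Dox on day 8, 6 rose and 5 fell on day 12, and with Dox+RA 5 rose and 4 fell, then 7 rose and 4 fell. The shares called, 33.3%, 52.4%, 42.9% and 52.4% of the list, stand beside 34.6%, 40.8%, 41.6% and 44.8% of all genes, so on day 8 they were near the background. Cyfip2, a subunit of the WAVE complex, rose by 3.68 ± 0.10 (q = 1.9e-12) and 3.86 ± 0.10 with Dox and by 3.84 ± 0.10 and 3.75 ± 0.10 with Dox+RA. Cdh2, the classical N-cadherin, fell by 1.37 ± 0.13 to 2.08 ± 0.13 over the 4 comparisons. Of the 19 classical and type II cadherins 6 rose and 5 fell with Dox on day 8 and 4 rose and 8 fell on day 12, then 3 rose and 5 fell and 3 rose and 6 fell with Dox+RA. With Dox 57.9% and 63.2% of them were called against a background of 34.6% and 40.8%, and with Dox+RA 42.1% and 47.4%, near the background of 41.6% and 44.8%. Cdh9, a type II cadherin of neurons, rose by 2.41 ± 0.52 with Dox on day 8, and Cdh3, the epithelial P-cadherin, fell by 2.63 ± 0.35. Of 9 Fat, Dachsous and Celsr cadherins, 5 rose and 3 fell in each comparison except Dox+RA on day 12, where 4 rose (88.9% called in the first 3 comparisons and 77.8% in the last). Celsr3, which guides axons, rose by 2.76 ± 0.20 with Dox on day 8, and Fat4, which pairs with Dachsous, fell by 2.47 ± 0.15. Of 6 measured genes for shedding and gamma-secretase, which cut protocadherins, 1 or 2 rose and 1 or 2 fell (33.3%, 50%, 33.3% and 66.7% called), with Aph1a, a gamma-secretase subunit, lower by -0.90 ± 0.14 with Dox on day 8. For Fat4 and Aph1a the lowest of several entries per gene did not give a call in Dox iHCs on day 8 (q = 0.527 and 0.65).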

How the data were processed

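Gene expression was read on 16 arrays of 6 groups. The authors' deposited values are log2 values, made by RMA in Expression Console per the submitters' processing notes (no version stated). The array's genome build and any strip or scan batch were not given in the sources used here. RMA corrects background, sets arrays to a common distribution and summarises probes, and the table has no detection calls. Values were used as deposited. Of 33708 entries, 23521 carry 1 symbol, 1814 several and 8373 none; for 1082 genes with several entries the highest mean entry was used, which left 22180 genes.

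All genes were fitted together in limma 3.58.1 (R 4.3.3; lmFit, contrasts.fit and eBayes at defaults) with a mean per group and 12 contrasts, and Benjamini-Hochberg adjusted p-values under 0.05 over all genes were called. On simulated data made for the comparison of Dox iHCs with control EBs on day 8, over 22180 genes, 90% of genes changed 2-fold and 100% of those changed 4-fold were called. Only 200 genes were changed there and the arrays were independent, whereas the real comparison called 34.6% of all genes. These shares therefore need not hold for the real data. Alternatives were 10 other settings and each of 16 arrays left out in turn. Same-numbered iHC arrays deviated together (r = 0.147 to 0.513 over 6 pairs of groups). The main fit had no term for the replicate number, so its tests leave this pairing out. The replicate block, 1 of the 10 settings, added the replicate number for all 16 arrays, control EBs included. The control EBs have 2 numbers.

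Members and lists were chosen with earlier results of these data known. The text names every non-clustered member, in each comparison up to 5 called rises and 5 called falls among clustered genes (where none is called, the 2 largest differences), up to 4 called genes of each other list, and, after values were seen, further genes, mainly those whose call was lost without 1 array or changed with the replicate block. The number of arrays limits the precision. Tables were summarised with pandas 2.3.3 and drawn with matplotlib 3.10.9 in Python 3.11.15.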

Additional observations from a re-analysis of the deposited data

Results flagged for a closer look

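The difference between day 12 and day 8 was not the same in iHCs and control EBs for 7 protocadherins, by limma's interaction test. With Dox it was smaller than in control EBs for Pcdh11x (-1.65), Pcdhb14 (-1.43), Pcdhb13 (-1.36), Pcdh19 (-1.03), Pcdhb15 (-0.89) and Pcdhb2 (-0.83). With Dox+RA it was smaller for Pcdhb14 (-1.56), Pcdh11x (-1.42), Pcdhb13 (-1.30), Pcdhb15 (-1.11) and Pcdhb2 (-0.82), and larger for Pcdh1 (0.92). These calls were lost without control EB day 12 replicate 1 (adjusted p = 0.0786 to 0.207 with Dox and 0.0651 to 0.207 with Dox+RA) and without control EB day 8 replicate 2 (0.0724 to 0.212 and 0.0561 to 0.186).

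One array entry outside the comparisons carries several gamma cluster symbols and cannot be given to a single gene. It was higher in Dox+RA iHCs than in control EBs on day 12 by 0.46 ± 0.16 (limma's adjusted p over all 33708 entries = 0.0335). Its differences in the other comparisons with control EBs were -0.01, 0.15 and 0.23. An entry of the alpha cluster differed from control EBs by 0.02 to 0.19 and was not called.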

How the results depend on the processing

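Each comparison was recomputed under 26 alternatives, and 0 of 4864 gene values reversed a call: 4594 stayed on their side of the threshold, 234 lost a call and 36 gained one. Counts of called protocadherins against control EBs stayed within 1.5 times of 17, 17, 18 and 22 under the 10 settings that keep all arrays, the replicate block giving 20, 20, 21 and 23, and 15 for control EBs over days. The replicate block raised the count for RA from 7 to 12 on day 8 and from 2 to 5 on day 12, and that of the day interaction with Dox+RA from 6 to 10; with Dox it gave 9, and for Dox over days 8. It ended no call of a protocadherin. Fitting only the groups compared gave 1 for RA on day 12, 0 for Dox over days (10 with an unadjusted p under 0.05 in limma), 0 for the interaction with Dox (11 unadjusted) and 11 for that with Dox+RA. Array weights gave 4 for RA on day 12, 11 for Dox over days and 10 for the interaction with Dox+RA. Median centring gave 3 for Dox over days, and leaving out dim genes gave 3 of 25 members for the interaction with Dox. The shares of all genes called under these settings were not counted, and the cause of these shifts was not tested.

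With each array left out in turn, the counts ranged from 11 to 18 and from 13 to 20 for Dox against control EBs on day 8 and day 12, and from 16 to 21 and from 17 to 24 for Dox+RA. They ranged from 2 to 10 and from 2 to 4 for RA, from 0 to 13 for Dox over days (9 or 10 unadjusted at 0), from 1 to 3 for Dox+RA over days and from 5 to 15 for control EBs over days. The interactions ranged from 0 to 7 with Dox (10 unadjusted at 0), from 0 to 10 with Dox+RA (15 and 13 at 0) and from 0 to 0 for RA by day (3 to 9 unadjusted). Leaving out an array outside the comparison ended 11 calls of a gene in a comparison (adjusted p = 0.050 to 0.0621) and added 20 (0.00372 to 0.0499). The shares of all genes called without each array were not counted. The table has no detection calls, and 9 members lie in the lowest 30% of genes by mean, where signal limits the differences.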
